A study of Sus scrofa with 39 samples.

Results

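A set of 10 B lineage and plasma cell regulators was followed in the whole blood of preterm piglets with and without necrotizing enterocolitis (NEC), an inflammatory disease of the immature intestine that can kill the tissue. The genes were SPIB, EBF1, PAX5, POU2AF1, IRF4, PRDM1, XBP1, BACH2, IKZF3 and JCHAIN. They were taken as the rows whose pig gene ID carries 1 of these symbols, which gave 10 of the 25880 genes counted, and all 10 were among the 10731 genes tested. The study sequenced blood RNA from 39 formula-fed preterm piglets, diagnosed at necropsy on day 5, to look for blood markers of the disease (the sources used here do not give the day of the blood draw). The controls without NEC (CON) numbered 19, and 20 piglets had NEC, 11 of them graded mild and 9 severe. All groups shared preterm birth and formula feeding, and females (19) and males (20) were about equally common. The 3 labelled batches differed in make-up: the CON piglets were split 7, 5 and 7, the mild ones 4, 0 and 7 and the severe ones 3, 4 and 2 over batches 1, 2 and 3.

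Most of these genes encode transcription factors that act in a sequence known mainly from mouse and human cells. EBF1 and PAX5 set and hold B cell identity, SPIB and the octamer coactivator POU2AF1 serve antigen receptor signalling and later B cell responses, and BACH2 keeps activated B cells from turning into plasma cells by repressing PRDM1. IRF4, PRDM1 and XBP1 drive the change to antibody-secreting plasma cells, and JCHAIN encodes the joining chain that links secreted IgM and IgA. In blood, resting B cells carry the first set, while plasmablasts, the circulating precursors of plasma cells, carry the last.

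The libraries held 12.8 to 29.0 M (mega) counts on genes, of which HBB, the beta-globin gene, took a mean of 56.0%. Severe replicate 9 stood apart, with the fewest genes detected (10674 against 11584 or more in CON libraries), and CON replicate 16 had the highest scaling factor, 4.09. The lowest factor was 0.308, and the medians were 0.776 in CON, 0.634 in mild and 1.40 in severe libraries. Levels scaled by these factors thus rest on factors that differed between the groups. Severe replicate 2 was labelled male and had 0 counts of the Y-linked gene KDM5D, where the other male libraries had 6 or more. Severe replicate 6 was labelled female and had 5 counts of it, where the other female libraries had 0 or 1. The control libraries of batch 3 included 4 from a separate library series, labelled BKDL. Values with and without these libraries are given where a result rests on them. The B cell antigen receptor and surface genes CD79A, CD79B and MS4A1 were detected well enough to be tested, so blood B cell RNA was measured in these libraries. Levels are given as CPM (counts scaled to a common, TMM-corrected library size), which compares a gene between piglets and not genes with each other, because transcript lengths were not used here.

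The genes differed widely in the counts behind their values. IKZF3 had a median of 309 counts per library (range 50 to 2376), PAX5 124 (29 to 699), SPIB 122 (49 to 680), BACH2 71 (1 to 523), XBP1 67 (14 to 454), POU2AF1 51 (11 to 445), IRF4 48 (10 to 199) and PRDM1 29 (3 to 142). EBF1 had a median of 14 counts, reached 10 counts in 24 of 39 libraries and had 0 in 1. JCHAIN had a median of 7 counts, reached 10 counts in 16 libraries and had 0 in 4, so its values carry the least precision. On Sscrofa11.1 (RefSeq gene table), PAX5 (237574938 to 237785454), PRDM1 (72309096 to 72335474) and BACH2 (57881203 to 58281740) lie on chromosome 1. The others lie on separate chromosomes, SPIB (ENSSSCG00000034211) on chromosome 6 at 55272847 to 55280881, POU2AF1 on chromosome 9 at 39121422 to 39144636, and XBP1 on chromosome 14 at 46011239 to 46016526. EBF1 lies on chromosome 16 at 64357999 to 64753188, IRF4 on chromosome 7 at 133358 to 149609, IKZF3 on chromosome 12 at 22466386 to 22562320, and JCHAIN on chromosome 8 at 67439405 to 67448628.

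In severe NEC SPIB fell against both CON and mild piglets, and it was the only member that passed in either comparison by edgeR's quasi-likelihood test (FDR under 0.05 over all tested genes). For severe against CON this is 1 of 10 members, where 2.09% of all genes were called (1.02% lower). For severe against mild it is again 1 of 10, where 0.112% of all genes were called (0.103% lower). EBF1, PAX5, POU2AF1 and IRF4 also read below both groups at an unadjusted p under 0.05 and did not pass. Other tools called more: limma voom called these 4 and SPIB in both comparisons, and DESeq2 called SPIB against CON and SPIB, EBF1 and PAX5 against mild. Over all genes voom called 15.9% and 7.62% in these comparisons and DESeq2 5.29% and 1.01%, so their member counts stand against higher backgrounds than edgeR's. Blood is a mixture, so fewer cells of a type and less RNA per cell cannot be told apart in any of these values.

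**Figure D1:**
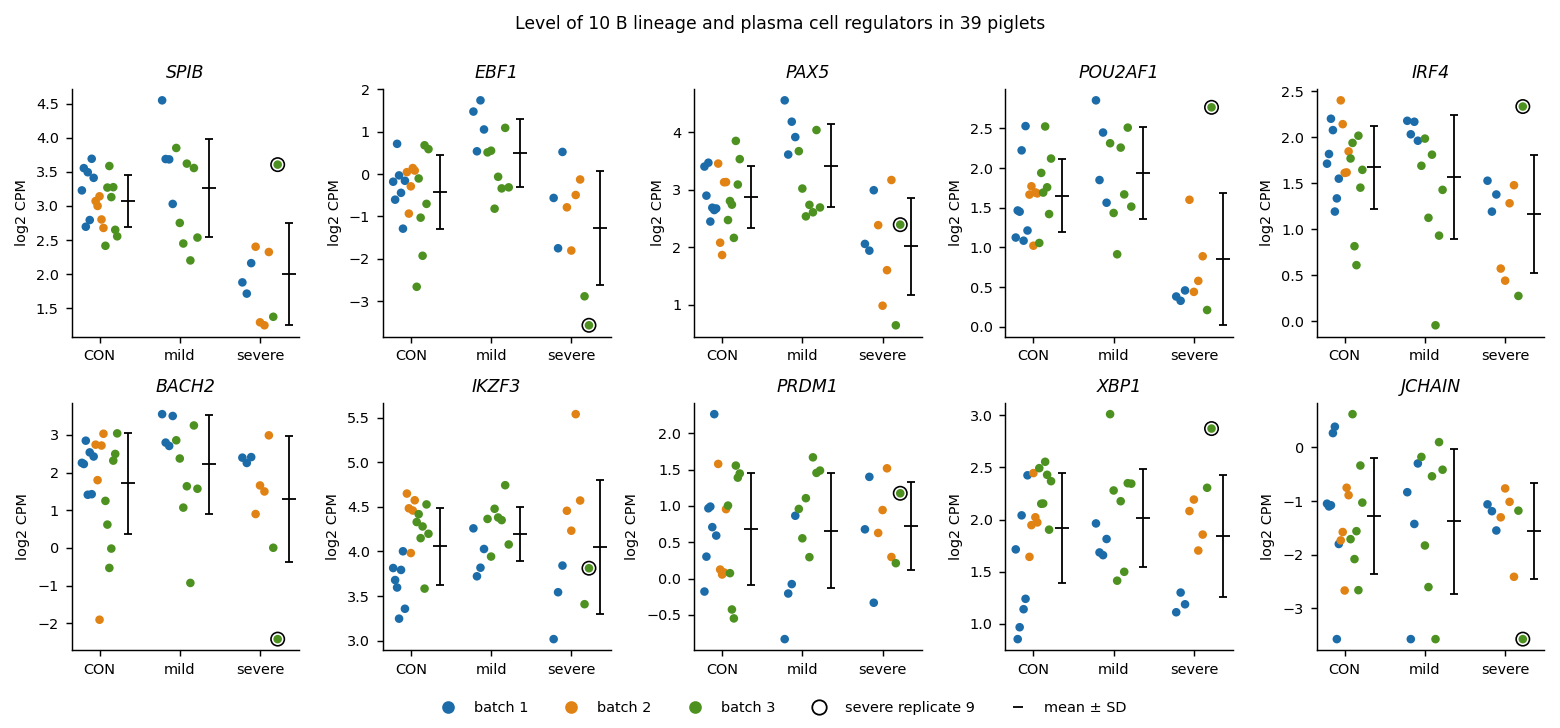
Level of each member (log2 CPM, prior count 2) in 19 CON, 11 mild and 9 severe piglets, each point a piglet coloured by batch, with mean ± SD beside each group and a ring around severe replicate 9. For SPIB 8 of 9 severe piglets lie below every control (0.0186% of all tested genes had at least 8), and severe replicate 9 lies above 18 of 19. The groups overlap for every member, PRDM1, XBP1 and JCHAIN included.

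SPIB encodes an Ets family factor of B cells and plasmacytoid dendritic cells. Its lowest, median and highest values were 5.25, 8.67 and 12.8 CPM in CON, 4.51, 11.7 and 23.4 in mild and 2.29, 3.59 and 12.1 in severe piglets. Severe piglets read 3.59, 3.19 and 4.39 CPM in batch 1, 5.20, 2.36, 2.29 and 4.92 in batch 2, and 2.50 and 12.1 in batch 3. Thus 8 of 9 severe piglets lay below the lowest control, and the exception, severe replicate 9, lay above 18 of 19 controls. Of all tested genes, 0.0186% (2 genes) had at least 8 severe piglets below the lowest control. SPIB changed by log2 -0.92 ± 0.23 (SE) in severe against CON (95% interval -1.38 to -0.46; edgeR FDR 0.0262), from a mean of 8.63 CPM (SD 2.28, n = 19) to 4.51 (SD 3.05, n = 9). Severe against mild it changed by -1.22 ± 0.27 (-1.75 to -0.68; edgeR FDR 0.0379), with a mild mean of 10.7 CPM (SD 5.48, n = 11). Mild against CON, which shares its controls with the severe comparison, read 0.29 ± 0.21 (-0.13 to 0.72; FDR 0.701), with 6 of 11 mild piglets at or above their batch's control median.

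The SPIB call depended on single libraries. Without severe replicate 9 the severe difference from CON was -1.26 (FDR 0.00272). Without severe replicate 1, 2, 5, 6 or 8 it was -0.82 to -0.88 and no longer passed, at FDR 0.0750, 0.0855, 0.0618, 0.0556 and 0.0639. Without the 4 BKDL controls it had an FDR of 0.0539, without batch 2 an FDR of 0.227, without batch and sex terms an FDR of 0.0560, and without CON replicate 16 it was -0.91 and passed (FDR 0.0279). Against mild the call was lost without mild replicate 1, 5 or 10 (FDR 0.110, 0.0948 and 0.0604), without severe replicate 1, 2, 5, 6 or 8 (FDR 0.0784 to 0.131), and also without batch 2 (0.129) and without the sex term (0.0805). In every one of these fits SPIB read lower in severe piglets, by at least 0.82 on the log2 scale.

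EBF1 and PAX5, the factors of B cell identity, had their highest medians in mild and their lowest in severe piglets. EBF1 had a lowest, median and highest value of 0.0739, 0.799 and 1.56 CPM in CON, 0.484, 1.37 and 3.26 in mild and 0, 0.497 and 1.35 in severe piglets. PAX5 had 3.56, 6.90 and 14.3 CPM in CON, 5.72, 12.1 and 23.4 in mild and 1.48, 4.08 and 8.91 in severe piglets. The groups overlapped for both genes. For PAX5, 3 severe piglets lay below the lowest control, a count that 5.42% of all genes reached; the lowest EBF1 values rest on 0 or 1 counts in severe and control libraries alike and cannot be ordered. For each gene 4 mild piglets lay above the highest control, which 1.44% of all genes reached. Severe against CON read -0.88 ± 0.40 for EBF1 (95% interval -1.70 to -0.07; edgeR FDR 0.231) and -0.81 ± 0.27 for PAX5 (-1.35 to -0.26; FDR 0.0901). Severe against mild gave the widest gaps of any member, -1.94 ± 0.47 for EBF1 (-2.89 to -0.98; FDR 0.0771) and -1.41 ± 0.32 for PAX5 (-2.05 to -0.77; FDR 0.0533). Mild against CON read 1.06 ± 0.36 for EBF1 (FDR 0.561) and 0.60 ± 0.24 for PAX5 (FDR 0.570). PAX5 passed against mild in 6 of 10 other settings and in 7 of 21 fits that left out a library, EBF1 in 3 of 9 and 3 of 21.

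POU2AF1 and IRF4 act later, in activated B cells; IRF4 is needed both there and in plasma cells. POU2AF1 had a lowest, median and highest value of 1.95, 3.12 and 5.69 CPM in CON, 1.80, 3.52 and 7.15 in mild and 1.07, 1.29 and 6.72 in severe piglets. IRF4 had 1.44, 3.20 and 5.21 CPM in CON, 0.884, 3.43 and 4.45 in mild and 1.13, 2.35 and 4.96 in severe piglets. As many as 7 of 9 severe piglets lay below the lowest control for POU2AF1, which 0.0932% of all genes reached, and 3 of 9 did for IRF4. The highest severe value of both genes was again that of severe replicate 9, above all 19 controls for POU2AF1 and above 18 for IRF4. Severe against CON read -0.67 ± 0.26 for POU2AF1 (95% interval -1.20 to -0.15; edgeR FDR 0.151) and -0.48 ± 0.22 for IRF4 (-0.93 to -0.04; FDR 0.225). Without severe replicate 9 both passed, POU2AF1 at -1.10 (FDR 0.00715) and IRF4 at -0.77 (FDR 0.0243), and POU2AF1 also passed against mild at -1.42 (FDR 0.0118), in fits that called 6.66% and 0.518% of all genes. Severe against mild with all libraries read -0.92 ± 0.31 for POU2AF1 (FDR 0.215) and -0.52 ± 0.26 for IRF4 (FDR 0.392). Mild against CON read 0.24 ± 0.24 for POU2AF1 and 0.04 ± 0.22 for IRF4.

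BACH2, the repressor that holds B cells back from the plasma cell fate, varied widely between piglets of every group. Its lowest, median and highest values were 0.184, 4.69 and 8.13 CPM in CON, 0.442, 6.43 and 11.6 in mild and 0.103, 3.07 and 7.83 in severe piglets. Very low values occurred in all 3 groups, with SPIB high in some of those piglets and low in others. Severe replicate 9 had 0.103 CPM of BACH2 with 12.1 CPM of SPIB, CON replicate 10 had 0.184 with 8.74, and severe replicate 8 had 0.920 with 2.50. Apart from CON replicate 10 of batch 2, the lowest values came from batch 3. There mild replicate 9 had 0.442 CPM, and CON replicates 15, 16 and 14 had 0.609, 0.905 and 1.45 CPM. Severe against CON read -0.54 ± 0.44 (95% interval -1.43 to 0.36; edgeR FDR 0.551), severe against mild -1.19 ± 0.53 (FDR 0.351) and mild against CON 0.65 ± 0.41 (FDR 0.671). IKZF3, an Ikaros family factor of B, T and natural killer cells, had 9.40, 17.7 and 25.0 CPM in CON, 13.1, 19.1 and 26.7 in mild and 8.005, 14.3 and 46.5 in severe piglets. The groups overlapped for IKZF3, and severe replicate 6 had the highest value, 46.5 CPM. IKZF3 read -0.09 ± 0.15 in severe against CON (-0.40 to 0.22; FDR 0.805), 0.25 ± 0.14 in mild against CON and -0.34 ± 0.18 in severe against mild.

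The plasma cell genes gave no difference that passed, and their intervals bound its size unevenly. PRDM1, which encodes the repressor Blimp-1, had a lowest, median and highest value of 0.599, 1.55 and 4.72 CPM in CON, 0.477, 1.74 and 3.10 in mild and 0.709, 1.52 and 2.78 in severe piglets. XBP1, the factor of the unfolded protein response, had 1.72, 3.98 and 5.79 CPM in CON, 2.58, 3.81 and 7.98 in mild and 2.08, 3.54 and 7.24 in severe piglets. No severe piglet lay below the lowest control for PRDM1 or XBP1, and for JCHAIN none could, because the lowest control had 0 counts. JCHAIN had 0, 0.383 and 1.45 CPM in CON, 0, 0.477 and 0.987 in mild and 0, 0.355 and 0.505 in severe piglets; a count of 0 allowed up to 0.488 CPM in the control that had it and 0.310 CPM in the severe one. Severe against CON read 0.02 ± 0.30 for PRDM1 (95% interval -0.58 to 0.62; edgeR FDR 0.982), -0.04 ± 0.17 for XBP1 (-0.38 to 0.29; FDR 0.925) and -0.38 ± 0.51 for JCHAIN (-1.41 to 0.65; FDR 0.743). A drop in XBP1 as large as that of SPIB thus lay outside its interval, whereas one in JCHAIN did not. Mild against CON read -0.12 ± 0.31, 0.09 ± 0.16 and 0.01 ± 0.40 for PRDM1, XBP1 and JCHAIN, and severe against mild 0.14 ± 0.37, -0.14 ± 0.20 and -0.38 ± 0.62.

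**Figure D2:**
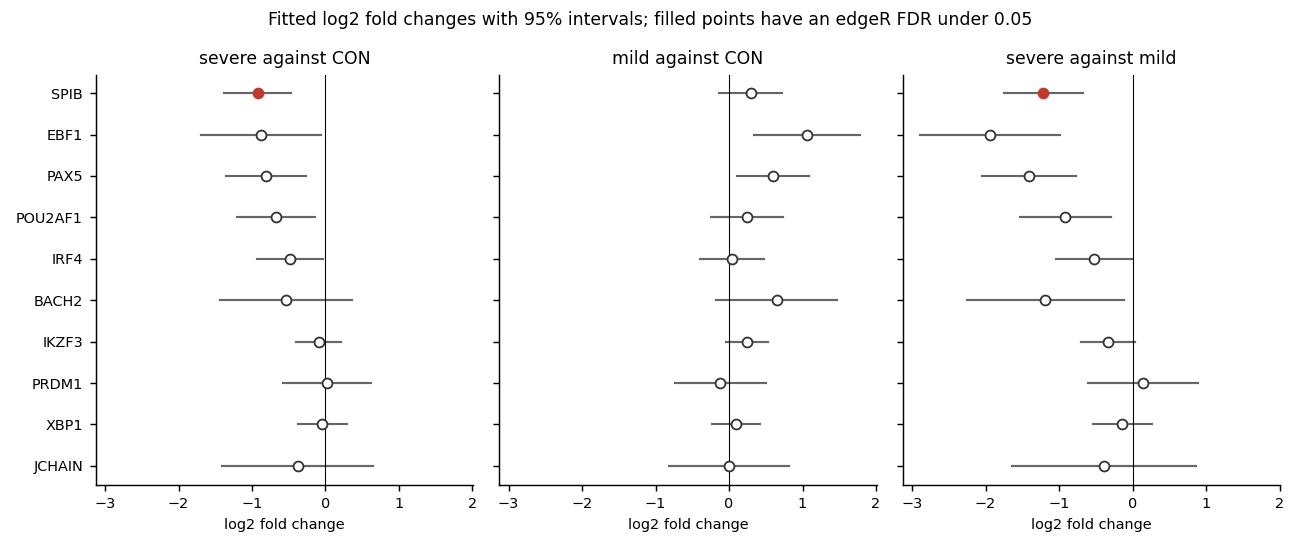
Fitted log2 fold change of each member with its 95% interval for severe against CON, mild against CON and severe against mild; filled points have an edgeR FDR under 0.05. SPIB is filled in both severe panels, at -0.92 and -1.22, and the intervals of XBP1, PRDM1 and JCHAIN span 0 in all 3.

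The members were chosen with earlier results of these data known, so their counts describe them and test nothing. Counted over the members, 9 of 10 read below CON in severe piglets, where 55.3% of all genes did, with a median of -0.51 against -0.05 over all genes. An unadjusted p under 0.05 was reached by 5 of 10, all lower, against 9.9% of all genes that were lower at that p. In mild piglets the direction was the other: 1 of 10 read below CON (49.7% of all genes), and the median was 0.25 against 0.002. No member passed there by edgeR, DESeq2 or limma, and 2 members, EBF1 and PAX5, had an unadjusted p under 0.05 (7.84% of all genes; edgeR called 0%). Severe against mild set the grades apart directly, with 9 of 10 members lower (55% of all genes), a median of -0.72 against -0.04, and 6 of 10 lower at an unadjusted p under 0.05, against 6.21% of all genes. With the grades pooled, as in the study's NEC label, 0 members passed by edgeR and 0 had an unadjusted p under 0.05 (14.4% of all genes; edgeR called 0%). DESeq2 and limma called 60 and 127 genes (0.559% and 1.18%) in that comparison and no member. SPIB then read -0.22 ± 0.21, PAX5 0.04 ± 0.25 and EBF1 0.31 ± 0.36; the mild and severe values above lay on opposite sides of CON for all 3 genes.

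**Figure D3:**
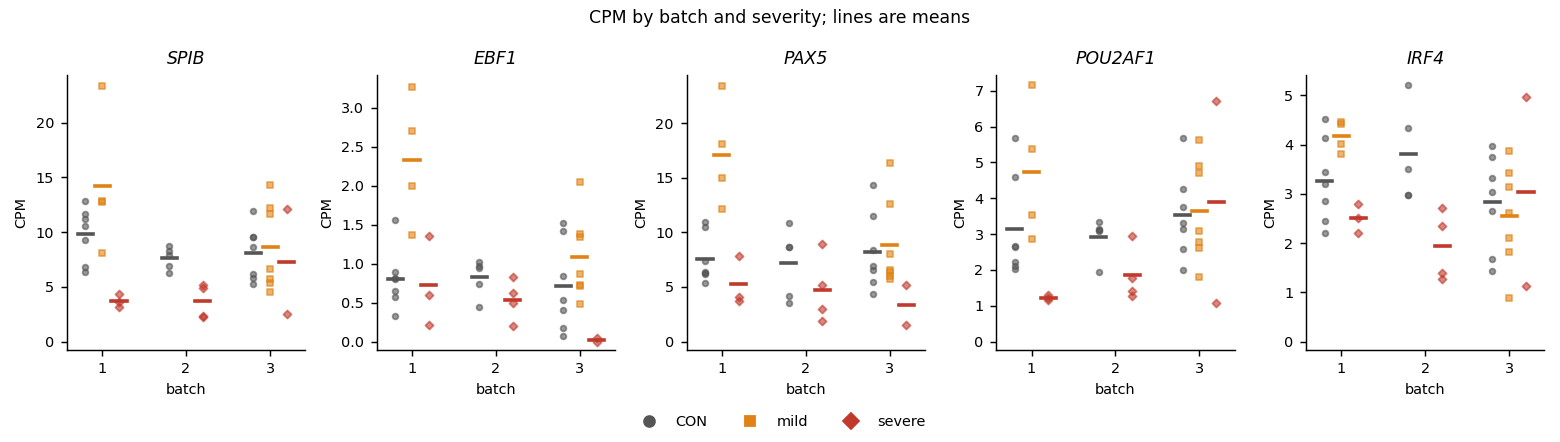
CPM of SPIB, EBF1, PAX5, POU2AF1 and IRF4 by batch, with CON, mild and severe piglets as separate symbols and lines at the group means. Severe SPIB values lie below every control of batches 1 and 2, and in batch 3 the 2 severe piglets stand beyond opposite ends of the controls for SPIB, POU2AF1 and IRF4.

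Within batches, the severe difference from CON in SPIB was -1.34 in batch 1 (95% interval -2.11 to -0.58), -1.06 in batch 2 (-1.76 to -0.37) and -0.26 in batch 3 (-1.11 to 0.59), where severe replicate 9 was 1 of the 2 severe piglets. POU2AF1 read -1.33, -0.67 and 0.03, and IRF4 -0.36, -0.95 and 0.04. PAX5 read -0.53, -0.63 and -1.37. BACH2 read 0.09, -0.36 and -2.55, the last with a 95% interval of -4.73 to -0.37. It rests on severe values of 0.103 and 0.920 CPM. CON replicates 15, 16 and 14 of that batch had 0.609, 0.905 and 1.45 CPM, and its other controls read higher. No member passed in severe against CON within a single batch (0.149%, 0.00932% and 2.52% of all genes were called in batches 1, 2 and 3). EBF1 read -0.26 and -0.65 in batches 1 and 2. In batch 3 its severe libraries held 1 and 0 counts, against 1 to 41 in the 7 controls and 8 to 56 in the 7 mild piglets, so the counts are given in place of a fold. The test that the severe effect differed among batches passed for 0 of 10 members (0.103% of all genes were called). The smallest p was that of EBF1, at 0.0236 (FDR 0.248), and 2 members had an unadjusted p under 0.05, against 16.1% of all genes. Without severe replicate 8, POU2AF1 passed that test at FDR 0.0499, where edgeR called 970 genes instead of 11.

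In mild piglets EBF1 and PAX5 read farther above CON in batch 1 than in batch 3. The difference from CON was 1.49 for EBF1 and 1.16 for PAX5 in batch 1, and 0.63 and 0.13 in batch 3. For EBF1, 1 of 11 mild piglets lay below the control median of its own batch. In batch 1 PAX5 ranged from 12.1 to 23.4 CPM in the 4 mild piglets and from 5.37 to 10.99 in the 7 controls. In batch 3 the ranges were 5.72 to 16.3 and 4.40 to 14.3 CPM. The share of all genes whose ranges separate within batch 1 was not counted. PRDM1 read -0.82 in batch 1 and 0.26 in batch 3. By edgeR 0 members passed in either batch, where 0% and 0.0373% of all genes were called in mild against CON. No member passed the test of a difference between these batches (edgeR, DESeq2 and limma each called 0 genes), and PAX5 alone had an unadjusted p under 0.05 (p = 0.0474, FDR 0.759; 6.33% of all genes). Severe against mild within batch 1 gave -1.86 ± 0.41 for SPIB (edgeR FDR 0.0397; 0.214% of all genes were called), -1.89 ± 0.47 for POU2AF1 (FDR 0.0771) and -1.69 ± 0.49 for PAX5. In batch 3 the same comparison gave -0.44 ± 0.43, -0.01 ± 0.47 and -1.50 ± 0.56, and EBF1 passed on the near-0 severe counts given above (edgeR FDR 0.0333; 1.44% of all genes were called).

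The members were next set beside a B cell index, the mean log2 CPM of CD79A and CD79B, the signalling chains of the antigen receptor, and MS4A1, which encodes CD20. The index averaged 3.28 (SD 0.42, n = 19) in CON, 3.64 (SD 0.72, n = 11) in mild and 2.31 (SD 0.69, n = 9) in severe piglets, and 6 of 9 severe piglets lay below the lowest control. Of single genes, 5.42% had at least 3 severe piglets there and 0.0932% at least 7. The share of other 3-gene means was not counted. Severe replicate 9, whose SPIB lay in the control range by CPM at a scaling factor of 0.399, had an index of 3.34. The control range was 2.44 to 4.11. Among the 19 controls SPIB followed the index, with Pearson r = 0.84 (permutation p = 3e-05, adjusted p = 0.0003 over 10 relations) and Spearman rho = 0.86 (permutation p = 1e-05, the smallest these permutations can give, adjusted p = 0.0001). Without the 2 controls farthest from the median index, r was 0.76 (permutation adjusted p = 0.0044). Within batches r was 0.80 in batch 1 (n = 7, exact permutation p = 0.0252, adjusted p = 0.208) and 0.89 in batch 3 (n = 7, exact permutation p = 0.00853, adjusted p = 0.0853), and batch 2 held too few controls. The rank correlation within either batch was 0.96 (n = 7, exact permutation adjusted p = 0.0278). Index and members come from the same libraries and scaling.

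No other member passed by Pearson r against the index in controls. POU2AF1 gave r = 0.31, EBF1 0.19, PAX5 0.14, PRDM1 0.15, IRF4 0.06, BACH2 -0.01 and JCHAIN -0.26. XBP1 and IKZF3 ran the other way, at r = -0.46 (permutation adjusted p = 0.159) and -0.55 (permutation adjusted p = 0.0731). By rank, IKZF3 passed, with rho = -0.63 (permutation adjusted p = 0.0246), and XBP1 did not, with rho = -0.30 (permutation adjusted p = 0.418). Without the 2 controls farthest from the median index, IKZF3 also passed by Pearson r, at -0.63 (permutation adjusted p = 0.0394), and without the BKDL controls it passed by neither (rho = -0.58, permutation adjusted p = 0.127). Batches differed in level, with control means for XBP1 of 2.93, 3.997 and 4.87 CPM, for IKZF3 of 12.6, 21.7 and 18.8 CPM and for the index of 3.60, 2.99 and 3.16 in batches 1, 2 and 3. Within batches 1 and 3 the r was -0.13 and -0.26 for XBP1 and 0.24 and -0.53 for IKZF3, none passing.

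**Figure D4:**
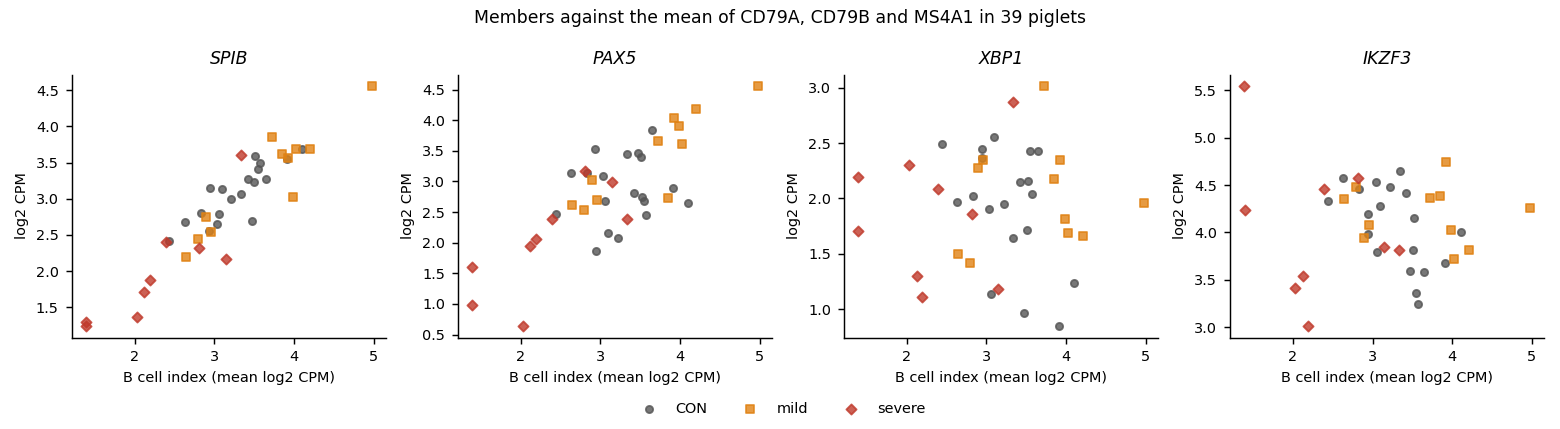
SPIB, PAX5, XBP1 and IKZF3 (log2 CPM) against the B cell index in 39 piglets, with CON, mild and severe piglets as separate symbols. Severe piglets lie low for SPIB except for severe replicate 9, 6 of 9 lie to the left of every control, and XBP1 shows no such alignment.

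The genes most alike to each member across the 39 piglets, after batch, sex and severity means were removed, differed between the members. These r values describe libraries that share 1 scaling, and they carry no test. SPIB was closest to CD79B (r = 0.90), CD72 (0.81) and CD79A (0.79), and POU2AF1 to CD79B (0.73), CXCR5 (0.70) and CD72 (0.69). PAX5 was closest to FCRL1 (0.82), ZNF395 and KIAA0040 (0.77 each), and EBF1 to MEF2C (0.72), CLCN3 and PALM2AKAP2 (0.69 each). BACH2 had the highest values, with USP34 (0.93), MBNL1 (0.92) and ZZEF1 (0.92), whose own severe differences from CON were 0.26, -0.04 and 0.05. IKZF3 was closest to SERPINB9, ZNF683 and PRF1 (0.69, 0.69 and 0.67), and PRDM1 to SAMD9, IFIH1 and GHSR (0.68, 0.62 and 0.62). XBP1 was closest to TRAPPC5 (0.68), HMGN4 (0.63) and EFTUD2 (0.60), IRF4 to PTCH1 (0.71), HACD3 and MMP11 (0.66 each), and JCHAIN to MANEA (0.70), TOX2 (0.67) and MCPH1 (0.64).

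Other genes of the same pathways, the members left out, were read as lists, also chosen with earlier results of these data known. Of 21 tested B cell surface and signalling genes, 17 read below CON in severe piglets and 4 fell, with a median of -0.62 against -0.05 over all genes, 55.3% of which read lower and 1.02% fell. The list's summed level did not show this difference, with a median of 248 CPM (193 to 335) in CON, 285 (217 to 364) in mild and 245 (200.2 to 320.02) in severe piglets. Its most abundant genes read higher in severe piglets, LYN, a Src family kinase of B and myeloid cells, by 0.46 ± 0.19 (FDR 0.184; CON mean 66.6 CPM) and the tetraspanin CD37 by 0.21 ± 0.15 (FDR 0.489; CON mean 41.7 CPM); both were chosen after their values were seen. The chemokine receptor CXCR5 changed by -1.14 ± 0.26, the IgM receptor FCMR by -0.75 ± 0.19, CD79A by -0.66 ± 0.17 and the kinase BLK by -0.91 ± 0.24 (edgeR FDR 0.0192 to 0.0380). CD79B read -0.91 ± 0.28 (FDR 0.0646) and MS4A1 -0.87 ± 0.26 (FDR 0.0617). The kinase SYK, named after its value was seen, rose by 0.65 ± 0.17; it is expressed in many blood cells. In mild piglets 16 of these 21 genes read above CON and none passed. Of 28 tested other transcription factors of the B lineage, 16 read lower in severe piglets, near the 55.3% of all genes, with a list median of -0.07. Of these 28, 1 fell (1.02% of all genes did), ID3, an inhibitor of helix-loop-helix factors, by 1.60 (SE 0.26, FDR 0.00309). The helix-loop-helix factor TCF3 read -0.47 ± 0.15 and its inhibitor ID2 0.55 ± 0.17, neither passing.

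Of 25 tested genes of plasma cells and the secretory pathway, 11 read lower and 14 higher in severe piglets, where 55.3% of all genes read lower. By edgeR 0 passed, and the median was 0.14. MZB1, a chaperone of B cells and plasma cells, read -0.94 ± 0.31 (FDR 0.0900), the peroxiredoxin PRDX4 -0.54 ± 0.18, the stress sensor ATF6 0.59 ± 0.20 and SEL1L of the degradation pathway 0.40 ± 0.17. Many of these secretory genes are expressed in all blood cells. Of 5 tested plasmacytoid dendritic cell markers besides SPIB, 2 read lower and 0 passed, with a median of 0.10 and TCF4, their lineage factor, at -0.02 ± 0.24. The summed level of the 7 such markers counted, tested or not, ranged from 15.7 to 33.1 CPM in CON, 15.7 to 26.7 in mild and 17.0 to 31.4 in severe piglets. TCF4 and IRF8 also belong to the list of transcription factors.

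Markers of other cells were read in the same way in severe piglets. Of all genes, 55.3% read lower than in CON, 1.02% were called lower and 1.07% were called higher. All 16 tested T cell markers read below CON, with a median of -0.54, and LCK, a T cell receptor kinase, fell by 0.63 (SE 0.18). Their summed level ranged from 198 to 433 CPM in CON, 114 to 395 in mild and 89.9 to 324 in severe piglets. All 8 tested monocyte markers read above CON and 4 rose, among them VCAN by 1.21 ± 0.28, with summed levels of 106 to 1131 CPM in CON, 29.9 to 1001 in mild and 292 to 1238 in severe piglets. Neutrophil markers read higher in 6 of 7 and 1 rose (SLPI, by 1.57 ± 0.38). Platelet markers read lower in 6 of 6 and natural killer markers in 2 of 9, with no call by edgeR in either list. Platelet markers also read lower in 6 of 6 in mild piglets, with a median of -0.76 there and -0.57 in severe piglets. IKZF3 and IRF4 are also expressed in T cells, and the part of any of these cell types in the members' values was not tested.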

How the data were processed

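Whole-blood RNA libraries of 39 piglets were analysed from the raw counts per Ensembl pig gene that the authors deposited, 1 file per piglet. The submitters' processing notes name Trim Galore, TopHat, HTSeq and DESeq2 as the authors' tools and Sscrofa11.1 as the build. The sources used here give no versions, counting mode or strand setting, so how reads of overlapping genes were assigned is not known. The 5 closing lines of each file stayed out of library sizes and tests; of all reads listed, they held a mean of 2.20% outside features, 7.48% ambiguous and 30.5% aligned to several places. Symbols named 14857 of 25880 genes. Libraries of a group differed by more than sampling noise (chi-square of at least 8.53 per degree of freedom), and each piglet was 1 replicate.

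The test was the quasi-likelihood F test of edgeR (version 4.0.16 in R 4.3.3; TMM scaling, robust dispersions, filterByExpr on the 3 groups with a minimum count of 10), with Benjamini-Hochberg adjustment over all 10731 genes and calls at an FDR of 0.05. Severity, batch and sex were terms over all 39 piglets; within-batch values came from group-by-batch terms. SE is |log2 fold change| / sqrt(F), and intervals cover 95%. Levels on the log2 scale used a prior count of 2. Index correlations used 100000 permutations, or every arrangement within batches. All tests were 2-sided. Scripts were tested on simulated counts. Intervals at counts of 0 used 3 counts and cover counting error only.

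Alternatives were DESeq2 1.42.0, limma 3.58.1 voom with sample weights, DESeq2's size factors, removal of globin and the 10 most abundant genes, no low-count filter, a filter of 1 CPM in 20 or more libraries, leaving out the sex term or the batch and sex terms, and fits without the BKDL controls, without batch 2 and without single libraries (each mild and severe piglet and CON replicate 16; the other 18 controls were not left out singly). Every member was named; other genes were the index genes, at most 4 per list by smallest p in severe against CON, and 3 most alike per member. One gene planned for the index and a list is not reported here, and the index used the other 3, a change made after the data were seen. The members and lists were chosen with earlier results of these data known. Promoter motifs and levels per coding length, also planned, were not run because no sequence was used here.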

Additional observations from a re-analysis of the deposited data

Results flagged for a closer look

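SPIB in severe replicate 9 stood apart from the other 8 severe piglets, at 3.61 on the log2 CPM scale, because its gap to the next severe piglet was 0.511 of the group's range, above Dixon's 95% critical value of 0.493 for 9 samples. The other severe piglets ranged from 1.25 to 2.40. Chance alone marks about 1 in 20 groups, and 10 members were examined. The same library had 10674 genes detected, the fewest of all, and 0 counts of EBF1 and JCHAIN. It also had the lowest scaling factor of the severe libraries, 0.399, where the severe median was 1.40. A lower factor gives higher CPM for the same counts and depth, and its part in this result was not tested.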

How the results depend on the processing

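The number of members called in severe against CON was 1 with all settings as reported, 5 with limma voom, and 0 without batch and sex terms, without the 4 BKDL controls or without batch 2; fits without a single library, run for each of 21 libraries (all mild, all severe and CON replicate 16), gave 0 to 3. In severe against mild it was 1, against 3 with DESeq2, 5 with voom, 2 with globin and the 10 most abundant genes removed, 2 with at least 1 CPM in at least 20 libraries (8 members tested), 0 without the sex term, 2 without batch and sex terms, 3 without the BKDL controls, 0 without batch 2 and 0 to 3 without single libraries. Over all genes, severe against CON called 224 genes, 568 with DESeq2, 1701 with voom, 127 with no low-count filter, 38 without batch and sex terms, 70 without the BKDL controls, 12 without batch 2, and 12 (without severe replicate 2) to 721 (without severe replicate 9) without single libraries. Severe against mild called 12, 108 with DESeq2, 818 with voom, 33 without the BKDL controls, 0 without batch 2 and 5 to 104 without single libraries. Mild against CON called 2 genes without batch 2, and NEC against CON 60 with DESeq2, 127 with voom, 5 without batch 2 and 0 to 1 without single libraries. The severe effect between batches called 11 genes, 153 with DESeq2, 31 with voom, 6 with no filter, 0 with the 1 CPM filter, 0 without the sex term, 3 without the BKDL controls, 42 without batch 2 and 0 to 970 without single libraries (members 0 to 1). By Pearson r against the index, 1 member passed with all controls, 2 without the 2 controls farthest from the median index, and 0 within batch 1 or batch 3 after adjustment. The causes were not tested.

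Signs turned in the following fits, for no value that had passed. Severe against CON, IKZF3 read 0.12 and PRDM1 -0.019 without batch and sex terms, and PRDM1 -0.092 without batch 2; without single libraries IKZF3 ranged from -0.23 to 0.0039, PRDM1 from -0.18 to 0.13 and XBP1 from -0.14 to 0.0024. Severe against mild, IKZF3 read 0.014 and PRDM1 -0.027 without batch and sex terms, and PRDM1 ranged from -0.046 to 0.30 without single libraries. Mild against CON, IRF4 read -0.014 without the sex term and -0.054 without batch and sex terms (-0.029 to 0.11 without single libraries), PRDM1 0.048 with voom and 0.0084 without batch and sex terms, and XBP1 ranged from -0.0104 to 0.16. JCHAIN there read -0.017 with DESeq2, -0.10 with voom, -0.022 with no filter, -0.17 without the BKDL controls, -0.054 without batch 2 and -0.21 to 0.17 without single libraries. NEC against CON without batch 2, SPIB read 0.046, POU2AF1 0.023 and IRF4 0.034; PAX5 read -0.15 and PRDM1 0.045 with voom, and XBP1 -0.0098 without the sex term. Without single libraries PAX5 ranged from -0.054 to 0.13, XBP1 from -0.027 to 0.063 and BACH2 from -0.014 to 0.22. No scaling moved the median of all genes by over 0.1. No paired analysis was possible because the labels give no replicate numbers shared between groups. Depth limits EBF1 and JCHAIN, with medians of 14 and 7 counts.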
